A study of Mus musculus with 12 samples.

Results

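The genes described here are 10 collagen genes of mouse fibroblasts: Col1a1, Col1a2, Col3a1, Col5a1, Col5a2, Col5a3, Col6a1, Col6a2, Col6a3 and Col12a1. They were taken by name from the deposited table of raw gene counts, so that they are 10 of the 33246 genes listed, and all 10 were among the 14542 genes that passed the filter on low counts. The cells were primary fibroblasts from the ears of 1-month-old C57BL/6 mice of both sexes, at passage 2, kept for 48 h on RGD-coupled alginate hydrogels, after which polyadenylated RNA was sequenced. RGD is the short peptide through which the cells adhere, since alginate itself, a seaweed polysaccharide, offers no adhesion site. The 4 groups of 3 samples were a 2 kPa elastic gel, a 20 kPa elastic gel, a 2 kPa viscoelastic gel and a 20 kPa viscoelastic gel, where kPa is the initial elastic modulus. Elastic gels were crosslinked covalently and held stress under a constant deformation. The viscoelastic gels were the slow-relaxing kind, crosslinked by calcium ions, so that viscoelasticity and crosslinking chemistry cannot be told apart in these groups.

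Collagens are trimers of alpha chains, each chain encoded by its own gene. Types I, III and V are fibrillar collagens: type I is the main fibre of skin and is built from the products of Col1a1 and Col1a2, type III is a homotrimer of the Col3a1 product that is mixed into the same fibres, and type V (Col5a1, Col5a2 and Col5a3) is a minor component that nucleates fibrils and limits their width. Type VI collagen (Col6a1, Col6a2 and Col6a3) forms beaded microfilaments around cells and cannot be assembled without the chain from Col6a3. Type XII collagen (Col12a1) is a fibril-associated collagen with interrupted triple helices, which lies on the surface of type I fibres.

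The samples held 36626221 to 43612804 counts each and their TMM scaling factors lay between 0.968 and 1.03. Levels are given as CPM, counts scaled by TMM to a common library size, and differences as log2 fold changes with their standard errors (SE) from edgeR's quasi-likelihood test on all 12 samples, called at a Benjamini-Hochberg adjusted p under 0.05 over all tested genes. Pairs of replicates varied more than counting error allows, with a mean chi-square per gene of 11.2 to 55.5, and the 3 samples of the 2 kPa viscoelastic group were the least alike (at least 37.4). All 11 fibroblast markers examined were tested and summed to between 6965 and 8500 CPM per sample; 3 of them (Lum, Dcn and Fap) are also in the lists of related genes given further on. Markers of keratinocytes, endothelial cells and leukocytes summed to at most 5.07, 3.51 and 9.01 CPM. Of 9 chondrocyte markers, 8 were tested and they summed to between 5304 and 7816 CPM, with Col2a1 at 2396 to 3471 CPM and Acan at 854 to 1611 CPM, while Matn1 reached no more than 8 counts in any sample. As these are bulk samples, a change in the share of such cells and a change of RNA per cell cannot be told apart.

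The collagen response was uneven among the chains. Col6a3 was lower on viscoelastic than on elastic gels at both stiffnesses, by 2.19-fold at 2 kPa and 1.75-fold at 20 kPa. Col1a1 and Col1a2, the chains of type I collagen, were not called in any comparison by edgeR's main fit. DESeq2, and edgeR under some other settings, called Col1a2 higher at 20 kPa and over both stiffnesses. At 2 kPa, 2 of the 10 genes were called on viscoelastic against elastic gels, Col6a3 and Col5a3, both lower, where 19.9% of all tested genes were called, 11.1% lower and 8.77% higher (1275 higher and 1617 lower, or 1675 and 1258 when samples were scaled by total counts alone). At 20 kPa, 4 of 10 were called, Col6a3, Col12a1 and Col5a1 lower and Col3a1 higher, where 33.5% of all tested genes were called, 16.1% lower and 17.4% higher (2527 higher and 2339 lower, or 2937 and 1901 when scaled by total counts alone). The count of 2 in 10 and of 4 in 10 thus lay near the share over all genes. That share rested in part on single samples: of 2892 genes called at 2 kPa, 1545 were called without replicate 1 and 1924 without replicate 2 of the 2 kPa elastic group, and of 4866 called at 20 kPa, 3177 were called without replicate 3 of the 20 kPa elastic group.

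Between stiffnesses, calls were made for type VI genes on elastic gels. Between 20 and 2 kPa on elastic gels, 3 of 10 were called, all lower and all of type VI (Col6a1, Col6a2 and Col6a3), against 14.0% of all tested genes, 7.14% lower and 6.81% higher. Between 20 and 2 kPa on viscoelastic gels, 0 of 10 were called by edgeR or by DESeq2 and 2 had an unadjusted p under 0.05 by edgeR. Over all tested genes, edgeR called 2.28% (1.58% higher and 0.695% lower) and DESeq2 757 of 13064. The 3 calls on elastic gels were lost at an adjusted p under 0.01, and none was left without replicate 2 of the 2 kPa elastic group or without replicate 2 of the 20 kPa elastic group. Over all tested genes, the 2029 calls on elastic gels became 1063 without replicate 3 of the 20 kPa elastic group and 1167 and 1341 without replicates 1 and 2 of the 2 kPa elastic group, and the 331 calls on viscoelastic gels became 9 without replicate 3 and 36 without replicate 1 of the 20 kPa viscoelastic group. The comparisons share groups (each elastic and viscoelastic group enters a comparison of gel type and a comparison of stiffness), so that they are not independent of each other.

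**Figure D1:**
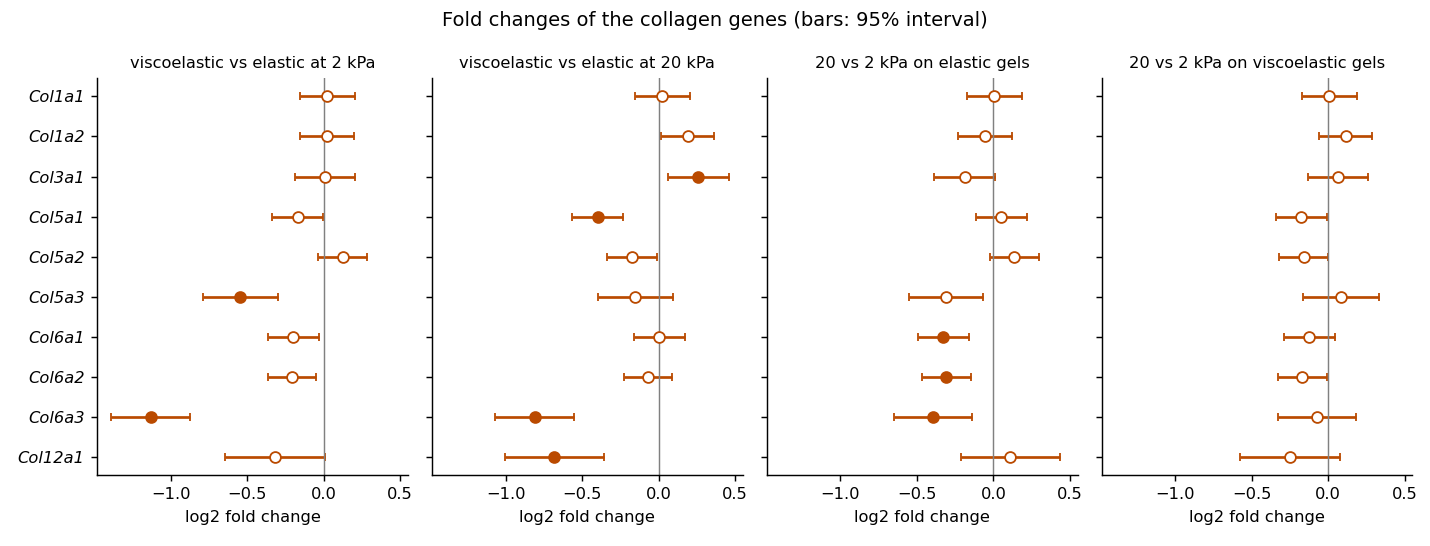
Log2 fold changes of the 10 collagen genes in the 4 comparisons of 2 groups (points, edgeR, 3 samples against 3), with the 95% interval as bars and filled points where the adjusted p over all tested genes was under 0.05. Col6a3 lies farthest to the left in both comparisons of viscoelastic with elastic gels, at -1.13 and -0.81, while the points of Col1a1 stay within 0.03 of 0 in all 4.

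Averaged over both stiffnesses, viscoelastic gels gave lower levels of 5 of the 10 genes, Col6a3, Col12a1, Col5a3, Col5a1 and Col6a2, where 40.0% of all tested genes were called, 20.4% lower and 19.6% higher (2846 higher and 2971 lower, or 3538 and 2309 when scaled by total counts alone). The effect of viscoelasticity at 20 kPa minus that at 2 kPa, tested as an interaction, was called for 0 of the 10 genes by edgeR, with 2 at an unadjusted p under 0.05, and for 1 of them (Col5a2) by DESeq2. Over all tested genes, edgeR called 7.56% (4.45% higher and 3.12% lower) and DESeq2 1359 of 13940. By edgeR, a gene called at a single stiffness was therefore not shown to respond differently at the other; by DESeq2, Col5a2 was called at 20 kPa and not at 2 kPa, and its interaction was called. The 1100 interactions called over all tested genes became 670 without replicate 1 of the 2 kPa elastic group and 727 without replicate 1 of the 20 kPa viscoelastic group. The median log2 fold change of the 10 genes was -0.19 and -0.11 for viscoelastic against elastic gels at 2 and 20 kPa and -0.12 and -0.10 for 20 against 2 kPa on elastic and viscoelastic gels, beside medians over all tested genes of at most 0.02 in size.

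The abundance of these transcripts differed widely between genes and their sum little between gels. Their summed share of counts was 3.13% ± 0.0496 (SD, n = 3) at 2 kPa and 2.96% ± 0.0374 at 20 kPa for the elastic samples, and 3.08% ± 0.153 at 2 kPa and 3.06% ± 0.106 at 20 kPa for the viscoelastic ones. To set genes side by side, CPM was divided by the length of each gene's main mRNA (the protein-coding transcript with the longest coding sequence in GENCODE M21). Col3a1 came highest, at a mean of 1319 CPM per kilobase over the 12 samples, followed by Col1a2 at 1077 and Col1a1 at 1039 CPM per kilobase. Col6a1 (658), Col5a2 (545) and Col6a2 (415) formed a middle range, and Col12a1 (136), Col5a1 (98.8) and Col6a3 (94.6) a lower one, all in CPM per kilobase. Col5a3 stood last at 5.16 CPM per kilobase. Some neighbours in this order did not part: Col1a2 was above Col1a1 in 8 of 12 samples and Col5a1 above Col6a3 in 8 of 12. By the total length of all annotated exons in place of the main mRNA, Col1a1 came before Col3a1, and Col6a1 before Col1a2. Within a gene, the highest sample was 1.19 times the lowest for Col1a1, 2.06 times for Col12a1 and 2.75 times for Col6a3, the widest range of the 10.

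**Figure D2:**
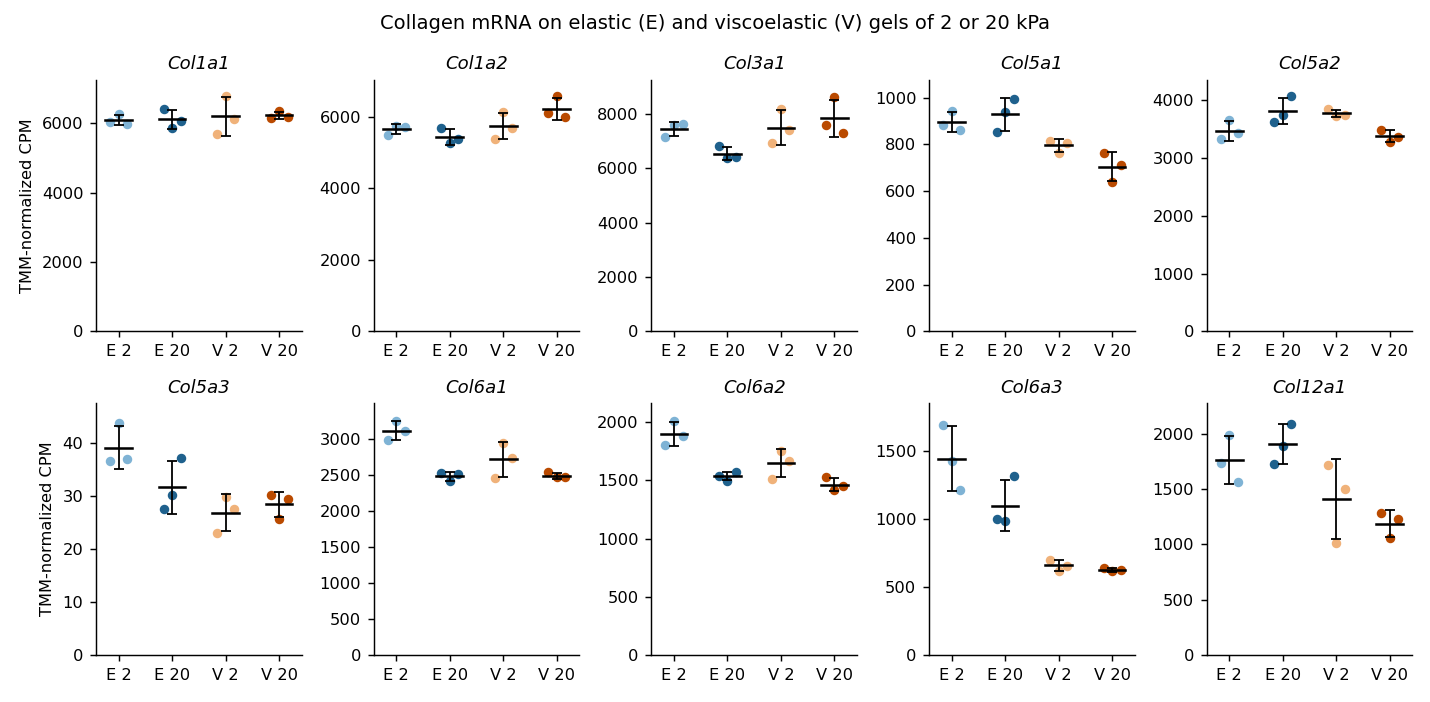
TMM-normalized CPM of each collagen gene in the 12 samples (points), with the mean and SD of the 3 samples of a group (black lines and bars), on elastic (E) and viscoelastic (V) gels of 2 or 20 kPa; each panel has its own axis from 0. The 6 viscoelastic samples of Col6a3 lie between 615 and 701 CPM and the 6 elastic ones between 984 and 1691 CPM, and those of Col5a1 likewise do not overlap, while the 12 samples of Col1a1 lie between 5686 and 6793 CPM.

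Of the type VI genes, Col6a3 carried the largest difference of the 10. Col6a3 (ENSMUSG00000048126.16) lies on the reverse strand of chromosome 1, 90765923 to 90843971 (GRCm38), and encodes the largest of the 3 chains. It was at 1691, 1424 and 1212 CPM on 2 kPa elastic gels and at 996, 984 and 1316 CPM on 20 kPa elastic gels. On viscoelastic gels it was at 701, 621 and 653 CPM at 2 kPa and at 642, 615 and 622 CPM at 20 kPa. All 6 viscoelastic samples were thus below all 6 elastic ones, and they lay close together where the elastic samples were spread (a coefficient of variation of 16.7% and 17.2% on elastic gels against 6.11% and 2.20% on viscoelastic gels, for 2 and 20 kPa). Among the 10 genes, 2 separated the 6 samples from the 6 in this way (Col6a3 and Col5a1), as did 12.4% of all tested genes.

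The log2 fold change of Col6a3 was -1.13 (SE 0.12, adjusted p = 3.92e-05) at 2 kPa and -0.81 (SE 0.12, adjusted p = 0.000252) at 20 kPa. It ranked at place 117 at 2 kPa and at place 233 at 20 kPa when the 14542 tested genes were ordered from the most negative fold change. Both calls held under each of the 21 alternative settings, with the fold change between -1.24 and -0.97 at 2 kPa and between -0.89 and -0.66 at 20 kPa. The difference between the 2 effects was 0.32 on the log2 scale (95% interval -0.04 to 0.68, adjusted p = 0.281). On elastic gels Col6a3 fell from 2 to 20 kPa by 0.39 on the log2 scale (SE 0.12, adjusted p = 0.0398), although the 2 groups overlapped. That call held under 9 of 21 alternatives; without replicate 1 of the 2 kPa elastic group the value was -0.26 (adjusted p = 0.197), and without replicate 3 of the 20 kPa elastic group it was -0.54 (adjusted p = 0.00822).

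Col6a1 and Col6a2, the short chains of type VI collagen, were called between stiffnesses on elastic gels and kept nearly the same ratio to each other in every sample. They lie on the reverse strand of chromosome 10, Col6a2 (ENSMUSG00000020241.13) at 76595762 to 76623630 and Col6a1 (ENSMUSG00000001119.7) at 76708792 to 76726168, 85161 bp apart. Col6a1 was at 2982, 3252 and 3106 CPM on 2 kPa elastic gels and at 2525, 2410 and 2507 CPM on 20 kPa elastic gels. On viscoelastic gels it was at 2453, 2947 and 2739 CPM at 2 kPa and 2537, 2466 and 2467 CPM at 20 kPa. The 2 kPa elastic samples were thus above every other sample, and the 20 kPa samples of both gel types covered nearly the same range. Col6a2 was at 1809, 2010 and 1883 CPM on 2 kPa elastic gels and at 1539, 1498 and 1572 CPM on 20 kPa elastic gels. On viscoelastic gels it was at 1516, 1754 and 1668 CPM at 2 kPa and 1528, 1415 and 1452 CPM at 20 kPa. Again the 2 kPa elastic samples were above all others.

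On elastic gels, Col6a1 fell from 2 to 20 kPa by 0.33 (SE 0.078, adjusted p = 0.0123) and Col6a2 by 0.31 (SE 0.074, adjusted p = 0.0129) on the log2 scale, with no overlap of samples. The calls were lost without replicate 2 of the 2 kPa elastic group (adjusted p = 0.0555 for Col6a1 and 0.0636 for Col6a2) and without replicate 2 of the 20 kPa elastic group (0.0526 and 0.0537). With a correction for transcript length and GC content, the value of Col6a1 was -0.23 (adjusted p = 0.0387) and that of Col6a2 -0.19 (adjusted p = 0.0901). At 2 kPa, viscoelastic gels gave log2 fold changes of -0.20 for Col6a1 (adjusted p = 0.0874) and -0.21 for Col6a2 (adjusted p = 0.0607); DESeq2 called both (adjusted p = 0.0177 and 0.011), and so did edgeR without replicate 2 of the 2 kPa viscoelastic group (0.0283 and 0.0303). At 20 kPa the values were 0.01 for Col6a1 (95% interval -0.16 to 0.17) and -0.07 for Col6a2 (-0.23 to 0.09). Col6a2 was called lower over both stiffnesses, at -0.14 (adjusted p = 0.0475), a call kept in 4 of 20 alternatives and with a value of -0.0021 after the length and GC correction.

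The start sites of the 3 type VI genes and of Col5a3, which with Col6a3 was called at 2 kPa, are shown as the DNA in which the promoter elements of these diverging transcripts can be compared. RefSeq promoter windows (250 bases before to 50 after a start site, GRCm38.p6) were read for 7 of the 10 genes, all but Col1a1, Col5a2 and Col12a1. The windows are chr1:90843922-90844221 for Col6a3, chr10:76725995-76726294 for Col6a1, chr10:76623581-76623880 for Col6a2 and chr9:20815018-20815317 for Col5a3, all on the reverse strand and written 5′ to 3′ along the gene. Capitals mark the CCAAT box, the TATAAA box and the GC box GGGCGG on either strand.
Col6a3: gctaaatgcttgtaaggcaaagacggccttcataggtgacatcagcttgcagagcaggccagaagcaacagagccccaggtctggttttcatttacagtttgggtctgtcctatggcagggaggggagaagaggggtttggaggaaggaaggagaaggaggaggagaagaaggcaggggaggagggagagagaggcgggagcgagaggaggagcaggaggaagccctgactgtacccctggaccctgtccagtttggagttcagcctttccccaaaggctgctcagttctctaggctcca
Col6a1: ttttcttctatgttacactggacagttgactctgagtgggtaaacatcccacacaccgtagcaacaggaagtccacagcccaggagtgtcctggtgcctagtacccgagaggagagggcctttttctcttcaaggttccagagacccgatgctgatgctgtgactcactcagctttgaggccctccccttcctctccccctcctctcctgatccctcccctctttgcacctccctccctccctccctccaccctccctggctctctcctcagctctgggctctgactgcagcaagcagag
Col6a2: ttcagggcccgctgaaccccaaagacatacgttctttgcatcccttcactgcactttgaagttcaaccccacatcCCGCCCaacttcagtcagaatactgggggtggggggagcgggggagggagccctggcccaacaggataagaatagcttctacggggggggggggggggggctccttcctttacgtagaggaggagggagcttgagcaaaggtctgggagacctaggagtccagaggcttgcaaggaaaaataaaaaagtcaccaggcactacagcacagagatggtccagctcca
Col5a3: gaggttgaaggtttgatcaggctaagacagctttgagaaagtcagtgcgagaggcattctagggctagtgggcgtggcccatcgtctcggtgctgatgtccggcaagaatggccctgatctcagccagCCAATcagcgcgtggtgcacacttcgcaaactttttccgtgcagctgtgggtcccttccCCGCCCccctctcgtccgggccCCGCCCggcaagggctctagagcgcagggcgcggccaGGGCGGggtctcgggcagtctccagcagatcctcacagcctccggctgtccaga
The windows of Col6a3 and Col6a1 held none of these 3 motifs, that of Col6a2 held GGGCGG, and that of Col5a3 held CCAAT and GGGCGG. Over all 32851 RefSeq windows of that length, CCAAT was in 37.4%, the TATAAA box in 13.6% and the GC box in 35.7%. Of the other windows, Col1a2 held CCAAT and GGGCGG, Col5a1 GGGCGG and Col3a1 the TATAAA box. The letters CAGAC, a core of SMAD binding elements, was in the windows of Col6a3, Col6a2, Col1a2, Col3a1 and Col5a1 and in 49.6% of all windows, and GGAATG, a core of TEAD sites, was in that of Col3a1, in a further window of Col6a2 that begins at another start site, and in 14.7% of all windows.

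Col12a1 (ENSMUSG00000032332.17, chromosome 9, 79598991 to 79718831, reverse strand) was lower on viscoelastic gels of 20 kPa. It was at 1733, 1894 and 2095 CPM on 20 kPa elastic gels and at 1287, 1056 and 1227 CPM on 20 kPa viscoelastic gels, which did not overlap. The fall was 0.68 on the log2 scale (SE 0.15, adjusted p = 0.00368), or 1.60-fold, and held under all 21 alternatives. At 2 kPa the elastic samples were at 1740, 1993 and 1566 CPM and the viscoelastic ones at 1722, 1017 and 1507 CPM. Replicate 2 of the viscoelastic group lay far below its group and the groups overlapped. The log2 fold change at 2 kPa was -0.32 (95% interval -0.64 to 0.01, adjusted p = 0.153); it was -0.49 (adjusted p = 0.0353) without replicate 1 of that group and -0.13 (adjusted p = 0.474) without replicate 2. The difference between the effects at 20 and 2 kPa, -0.36, was not called (adjusted p = 0.352). Averaged over both stiffnesses, Col12a1 was lower by 0.50 on the log2 scale (SE 0.11, adjusted p = 0.00212), with all 6 viscoelastic samples below the elastic mean.

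The chains of type V collagen differed in which comparison they were called. Col5a1 (ENSMUSG00000026837.15, chromosome 2, 27886425 to 28039514, forward strand) encodes a chain of every common type V trimer. It was at 883, 945 and 859 CPM on 2 kPa elastic gels and at 814, 765 and 807 CPM on 2 kPa viscoelastic gels. At 20 kPa it was at 854, 938 and 993 CPM on elastic and at 763, 639 and 711 CPM on viscoelastic gels. The 6 viscoelastic samples were all below the 6 elastic ones, with a wider gap at 20 kPa. The log2 fold change was -0.17 at 2 kPa (SE 0.079, adjusted p = 0.137) and -0.40 at 20 kPa (SE 0.079, adjusted p = 0.00166), and the difference between these effects, -0.23, was not called (adjusted p = 0.248). Over both stiffnesses the fall of Col5a1 was 0.28 (SE 0.056, adjusted p = 0.00109); after the length and GC correction the value was 0.0021 at 2 kPa, -0.28 at 20 kPa (adjusted p = 0.0133) and -0.14 over both (adjusted p = 0.0573).

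Col5a2 (ENSMUSG00000026042.16) encodes the partner chain of Col5a1 and lies on chromosome 1 at 45374321 to 45503282, 24614 bp from Col3a1 on the opposite strand. It was at 3325, 3652 and 3428 CPM on 2 kPa elastic gels and at 3848, 3734 and 3750 CPM on 2 kPa viscoelastic gels. At 20 kPa it was at 3633, 3741 and 4072 CPM on elastic and at 3493, 3286 and 3371 CPM on viscoelastic gels. The viscoelastic samples were above the elastic ones at 2 kPa and below them at 20 kPa, without overlap in either case. Neither value passed edgeR's test: the log2 fold change was 0.12 (SE 0.076, adjusted p = 0.268) at 2 kPa and -0.17 (SE 0.076, adjusted p = 0.0901) at 20 kPa. DESeq2 called the value at 20 kPa (-0.19, adjusted p = 0.00703), and edgeR with the length and GC correction called that at 2 kPa (0.21, adjusted p = 0.0496). The difference between them was -0.30 (95% interval -0.52 to -0.07), with an adjusted p of 0.107 by edgeR and 0.0042 by DESeq2.

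Col5a3 (ENSMUSG00000004098.7, chromosome 9, 20770050 to 20815067, reverse strand) encodes a chain found in a less common form of type V collagen and had the fewest counts of the 10, 985 to 1789 per sample. It was at 36.7, 43.8 and 37.0 CPM on 2 kPa elastic gels and at 23.0, 29.9 and 27.6 CPM on 2 kPa viscoelastic gels, without overlap. The fall was 0.55 on the log2 scale (SE 0.11, adjusted p = 0.00447), or 1.46-fold, and was called under all 21 alternatives, with a value of -0.37 after the length and GC correction. At 20 kPa the elastic samples were at 27.5, 30.3 and 37.2 CPM and the viscoelastic ones at 30.2, 25.8 and 29.5 CPM. These overlapped, and the log2 fold change was -0.15 (SE 0.12, adjusted p = 0.331). The difference between the effects, 0.39, had an adjusted p of 0.161.

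Of the genes of types I and III, Col3a1 was called in 1 comparison by edgeR's main fit and Col1a1 and Col1a2 in none. By DESeq2, Col3a1 and Col1a2 were each called higher at 20 kPa and over both stiffnesses, where the values were 0.13 for Col3a1 (adjusted p = 0.0393) and 0.10 for Col1a2 (adjusted p = 0.0452), against adjusted p of 0.115 and 0.156 by edgeR's main fit. With the length and GC correction, with or without the replicate block, edgeR too called both genes over both stiffnesses. With total counts alone it called Col3a1 there. Col1a1 (ENSMUSG00000001506.10, chromosome 11, 94936224 to 94953042, forward strand) was at 6051, 6260 and 5992 CPM on 2 kPa elastic gels and at 6415, 5882 and 6066 CPM on 20 kPa elastic gels. On viscoelastic gels it was at 5686, 6793 and 6131 CPM at 2 kPa and 6161, 6354 and 6177 CPM at 20 kPa. The 4 groups overlapped throughout. The log2 fold change of Col1a1 on viscoelastic gels was 0.02 at 2 kPa (95% interval -0.16 to 0.20) and 0.03 at 20 kPa (-0.15 to 0.21).

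Col1a2 (ENSMUSG00000029661.16, chromosome 6, 4504814 to 4541544, forward strand) was at 5690, 5271 and 5364 CPM on 20 kPa elastic gels and at 6092, 6569 and 5979 CPM on 20 kPa viscoelastic gels. These samples did not overlap, and the log2 fold change was 0.19 (SE 0.082, adjusted p = 0.0836); DESeq2 called it (adjusted p = 0.0126), and so did edgeR in 3 alternatives, among them the length and GC correction (0.30, adjusted p = 0.0207). At 2 kPa Col1a2 was at 5498, 5750 and 5703 CPM on elastic and at 5386, 6121 and 5694 CPM on viscoelastic gels, with a log2 fold change of 0.02 (95% interval -0.15 to 0.19).

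Col3a1 (ENSMUSG00000026043.18, chromosome 1, 45311538 to 45349706, forward strand) was the gene of the 10 that edgeR's main fit called higher. It was at 6833, 6387 and 6423 CPM on 20 kPa elastic gels and at 7606, 8629 and 7302 CPM on 20 kPa viscoelastic gels, without overlap. The log2 fold change was 0.26 (SE 0.093, adjusted p = 0.0419), or 1.20-fold. The call was kept in 8 of 21 alternatives and was lost on leaving out any of 9 of the 12 samples, with adjusted p up to 0.174 (and a value of 0.19) without replicate 2 of the 20 kPa viscoelastic group. At 2 kPa Col3a1 was at 7158, 7597 and 7621 CPM on elastic and at 6923, 8187 and 7414 CPM on viscoelastic gels, which overlapped, with a log2 fold change of 0.01 (95% interval -0.19 to 0.21). The 20 kPa elastic samples were the lowest of the 4 groups for Col3a1, and the comparison of 20 with 2 kPa elastic gels gave -0.19 (adjusted p = 0.197).

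The samples of the 2 groups did not overlap for 6 of the 10 genes in each comparison of viscoelastic with elastic gels, for 3 between 20 and 2 kPa on elastic gels and for 2 on viscoelastic gels. Over all tested genes these shares were 36.3% at 2 kPa, 49.9% at 20 kPa, 35.6% on elastic gels and 22.3% on viscoelastic gels.

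Markers of other cell types moved with some of these differences. Chondrocyte markers summed to between 5304 and 5540 CPM on 20 kPa elastic gels and between 5865 and 7816 CPM in the other 3 groups. Of the 8 tested, 5 rose on viscoelastic against elastic gels at 20 kPa, beside 17.4% of all tested genes called higher. Col2a1 was not among them (0.32, edgeR adjusted p = 0.0654), while Comp and Col9a1, also in the lists of related genes, were. Col3a1 rose in the same comparison. So did 4 of the 11 fibroblast markers (Vim, Dpt, Lum and Dcn), while 2 fell (Thy1 and Prrx1). Fibroblast markers summed to 8270 to 8500 CPM on 20 kPa viscoelastic and 6965 to 7515 CPM on 20 kPa elastic gels. From 2 to 20 kPa on elastic gels, 4 of the 8 chondrocyte markers fell, beside 7.14% of all tested genes called lower. That was the comparison in which Col6a1, Col6a2 and Col6a3 fell. At 2 kPa, where Col6a3 and Col5a3 were lower on viscoelastic gels, 0 of the 8 rose and 1 (Acan) fell by edgeR. Over all tested genes, 8.77% were called higher and 11.1% lower in that comparison. The 5 markers of smooth muscle and pericytes, all tested, summed to 472 to 554 CPM on 2 kPa and 375 to 509 CPM on 20 kPa elastic gels, and to 324 to 336 CPM and 280 to 337 CPM on 2 and 20 kPa viscoelastic gels. The 6 viscoelastic samples were below the 6 elastic ones, as for Col6a3 and Col5a1. Nearly all of that sum was Cspg4 (272 to 540 CPM), which is also in the list of collagen receptors, while Myh11, Rgs5 and Des, a smooth muscle myosin, a pericyte signalling regulator and the muscle filament desmin, reached at most 3.50, 1.00 and 0.318 CPM. Cspg4 and Notch3 were called lower at 2 kPa and over both stiffnesses, but Myh11 was called higher at 2 kPa. At 20 kPa, Cspg4 and Myh11 were called lower. The 4 Schwann cell markers summed to 43.0 to 47.2 CPM on 20 kPa elastic gels and to 52.4 to 93.0 CPM in the other groups. The part of these cell types in the results was not tested.

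Ratios of chains within a sample do not depend on how samples are scaled. For 6 ratios, the 6 viscoelastic samples were compared with the 6 elastic ones by a two-sided exact permutation test on the log2 ratio, adjusted over the 6 ratios; the smallest p such a test can give is 0.00216. Counts of Col6a3 per count of Col6a1 averaged 0.465 ± 0.0915 (SD, n = 3) on 2 kPa elastic gels and 0.443 ± 0.0717 on 20 kPa elastic gels. On viscoelastic gels the ratio was 0.245 ± 0.0379 at 2 kPa and 0.252 ± 0.00176 at 20 kPa. All viscoelastic samples were lower, by 0.86 on the log2 scale (exact permutation p = 0.00216, adjusted p = 0.00649), or 1.82-fold. The partner ratio of Col6a1 to Col6a2 stayed between 1.59 and 1.74 in all 12 samples and was higher on viscoelastic gels by 0.04 on the log2 scale (exact permutation p = 0.0368, adjusted p = 0.0442). That difference was 0.0068 at 2 kPa and 0.07 at 20 kPa.

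Counts of Col5a1 per count of Col5a2 were 0.258 ± 0.00746 and 0.243 ± 0.00784 on 2 and 20 kPa elastic gels (SD, n = 3) and 0.211 ± 0.0053 and 0.208 ± 0.0123 on 2 and 20 kPa viscoelastic gels. All 6 viscoelastic samples were again lower, by 0.26 on the log2 scale (exact permutation p = 0.00216, adjusted p = 0.00649), or 1.20-fold. The ratio of Col12a1 to Col1a1 was lower on viscoelastic gels by 0.54 on the log2 scale (exact permutation p = 0.0108, adjusted p = 0.0216), with overlapping samples. That of Col1a1 to Col1a2, which type I collagen uses at a fixed stoichiometry in its common form, lay between 0.967 and 1.13 in the 12 samples. It was lower on viscoelastic gels by 0.08 on the log2 scale (exact permutation p = 0.0325, adjusted p = 0.0442), as the average of 0.0010 at 2 kPa, where the gels had nearly the same ratio, and -0.16 at 20 kPa. The ratio of Col3a1 to Col1a1 was 1.07 ± 0.0142 on 20 kPa elastic gels and between 1.21 and 1.26 on average in the other groups, and its difference between gel types was 0.11 on the log2 scale (exact permutation p = 0.0909, adjusted p = 0.0909), from -0.01 at 2 kPa and 0.23 at 20 kPa; it passed (0.14, exact permutation test, adjusted p = 0.0234) without replicate 3 of the 2 kPa elastic group. The differences of Col6a3 to Col6a1, Col5a1 to Col5a2 and Col12a1 to Col1a1 kept an adjusted p of at most 0.0476 when any sample was left out, while those of Col1a1 to Col1a2 and of Col6a1 to Col6a2 reached 0.0974 and 0.101. With 3 samples against 3, no ratio could reach an exact permutation p below 0.1.

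**Figure D3:**
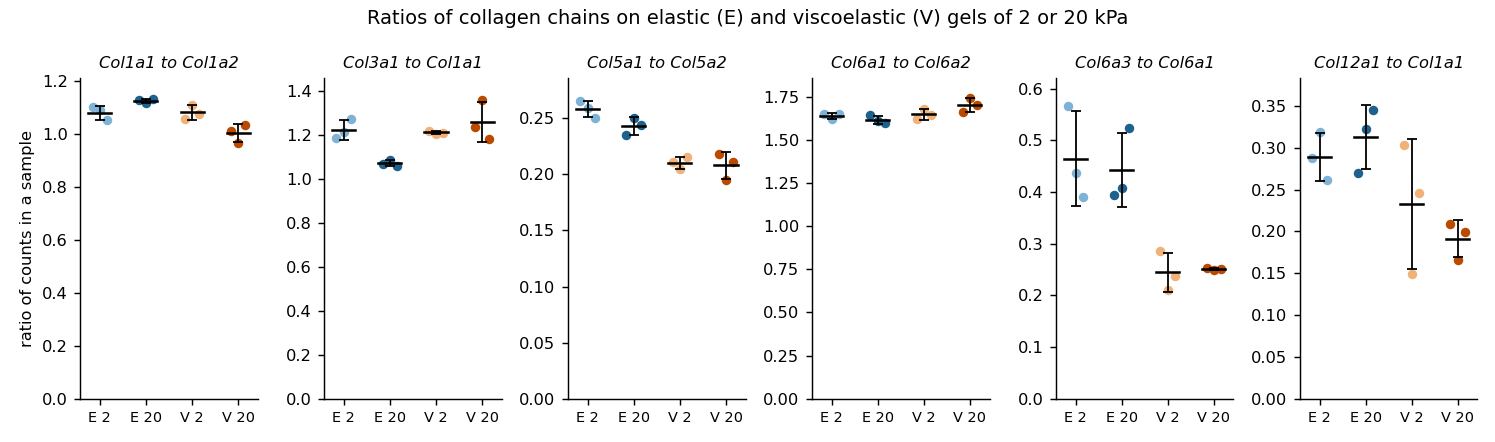
Ratios of the raw counts of collagen genes within each sample (points), with mean and SD of the 3 samples of a group (black), on elastic (E) and viscoelastic (V) gels of 2 or 20 kPa; every axis starts at 0. The ratios of Col6a3 to Col6a1 and of Col5a1 to Col5a2 are lower in all 6 viscoelastic samples than in all 6 elastic samples, while Col6a1 to Col6a2 stays between 1.59 and 1.74.

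Other genes of the collagen pathway were described by lists of named genes, of which the counts called in each direction are given; counts at 2 and 20 kPa are to be read beside the 8.77% higher and 11.1% lower and the 17.4% higher and 16.1% lower of all tested genes. Of 27 further collagen genes tested, 3 rose and 11 fell on viscoelastic against elastic gels at 2 kPa, and 6 rose and 7 fell at 20 kPa, beside 19.9% and 33.5% of all tested genes called in either direction. Both basement membrane chains Col4a1 and Col4a2 were among those that fell at each stiffness; Col4a1 fell at 20 kPa from 1133 ± 94.4 to 780 ± 30.1 CPM (SD, n = 3; log2 fold change -0.54, SE 0.080, adjusted p = 0.000265). Col14a1, a fibril-associated collagen of the same class as Col12a1, rose at 20 kPa from 55.8 ± 3.98 to 91.4 ± 10.0 CPM (0.71, SE 0.085, adjusted p = 0.000108) and was among the genes that fell at 2 kPa. Between 20 and 2 kPa on elastic gels, 2 rose and 11 fell, beside 14.0% of all tested genes called. On viscoelastic gels 2 rose and 1 fell, beside 2.28%.

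Of 22 genes that modify, fold and export procollagen, 2 rose and 4 fell at 2 kPa and 5 rose and 3 fell at 20 kPa on viscoelastic against elastic gels, near the 19.9% and 33.5% called over all tested genes. P4ha3, a subunit of a prolyl 4-hydroxylase, rose at 2 kPa from 64.6 ± 7.36 to 98.1 ± 9.66 CPM (SD, n = 3; 0.60, SE 0.083, adjusted p = 0.000272). Creb3l1, a transcription factor of the endoplasmic reticulum that acts on Col1a1 in bone, was called higher at both stiffnesses, and at 20 kPa was at 45.7 ± 0.98 CPM on elastic and 65.2 ± 1.49 CPM on viscoelastic gels. Mia3, which is needed to load procollagen into transport carriers, was called lower at both, and at 20 kPa was at 289 ± 6.38 and 226 ± 11.4 CPM. With stiffness on elastic gels, 1 rose (P4ha3) and 1 fell (P3h2), beside 14.0% of all tested genes called. On viscoelastic gels 0 were called by edgeR, near the 2.28% of all tested genes.

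Of 28 genes for procollagen cleavage, crosslinking and fibril assembly, 4 rose and 5 fell at 2 kPa and 8 rose and 9 fell at 20 kPa, beside 19.9% and 33.5% of all tested genes. The genes that fell at 20 kPa included the lysyl oxidases Loxl1, Loxl2, Loxl3 and Loxl4, which crosslink collagen. At 2 kPa, Loxl2 was instead called higher (0.39, edgeR adjusted p = 0.00370), and Loxl1, Loxl3 and Loxl4 were not called. Lox, a further lysyl oxidase, was not called by edgeR at either stiffness, with a positive value at 2 kPa and a negative one at 20 kPa. The genes that rose at 20 kPa included the small proteoglycans Dcn, Bgn, Lum and Fmod, which bind fibrils. Tnc, an adhesion-modulating matrix protein, fell at 20 kPa from 1992 ± 142 to 1272 ± 35.7 CPM (SD, n = 3; -0.65, SE 0.078, adjusted p = 0.000109), and Postn, which binds type I collagen, rose from 1566 ± 175 to 2530 ± 96.4 CPM (0.69, SE 0.10, adjusted p = 0.000225). With stiffness on elastic gels 4 rose and 6 fell, beside 6.81% higher and 7.14% lower of all tested genes. On viscoelastic gels 0 were called by edgeR, near the 2.28% of all tested genes.

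Of 11 collagen receptors tested, 1 rose and 6 fell at 2 kPa and 1 rose and 5 fell at 20 kPa on viscoelastic gels, beside 19.9% and 33.5% of all tested genes. Cspg4, which binds type VI collagen, was among those that fell at both stiffnesses. Antxr1, a further receptor for that collagen, was among those that fell at 2 kPa. Antxr2, of the same list, fell at 2 kPa (-0.33, edgeR adjusted p = 0.00223) but was the gene that rose at 20 kPa (0.23, edgeR adjusted p = 0.0115). Mrc2, an endocytic collagen receptor, fell at both and at 2 kPa went from 270 ± 41.8 to 154 ± 1.27 CPM (SD, n = 3; -0.81, SE 0.11, adjusted p = 0.000206). Of 11 proteases and inhibitors tested, 0 rose and 7 fell at 2 kPa (Mmp2, Mmp9, Mmp13, Mmp14, Ctsk, Fap and Timp2) and 0 rose and 3 fell at 20 kPa (Mmp9, Timp1 and Timp3), beside 11.1% and 16.1% of all tested genes called lower. Fap, a serine protease of activated fibroblasts, fell at 2 kPa from 24.5 ± 3.67 to 7.68 ± 1.80 CPM (-1.67, SE 0.19, adjusted p = 6.29e-05).

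Of 23 genes of TGF-beta signalling and other transcriptional inputs to collagen genes, 2 rose and 2 fell at 2 kPa and 3 rose and 5 fell at 20 kPa on viscoelastic gels, near the 19.9% and 33.5% called over all tested genes. Tgfb1, a ligand of the pathway, fell at 2 kPa from 61.6 ± 9.98 to 34.4 ± 0.599 CPM (SD, n = 3; -0.84, SE 0.097, adjusted p = 7.16e-05). Smad7, an inhibitory SMAD that the pathway induces, fell at 20 kPa from 60.3 ± 5.07 to 40.6 ± 2.47 CPM (-0.57, SE 0.077, adjusted p = 0.000172). Cebpb rose at 2 kPa from 37.5 ± 1.03 to 47.1 ± 2.63 CPM (0.33, SE 0.067, edgeR adjusted p = 0.00361). The genes that rose were Ccn2 and Cebpb at 2 kPa and Tgfb3, Cebpb and Tcf4 at 20 kPa. Those that fell were Tgfb1 and Tgfb2 at 2 kPa and Tgfbr1, Smad7, Skil, Sp1 and Mrtfa at 20 kPa. The median log2 fold changes of these 6 lists at 2 kPa were -0.18 for other collagens, -0.03 for modification and export, -0.09 for cleavage and assembly, -0.26 for receptors, -0.36 for proteases and inhibitors and -0.05 for TGF-beta and transcription, beside -0.19 for the 10 collagens and -7.47e-05 over all tested genes.

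**Figure D4:**
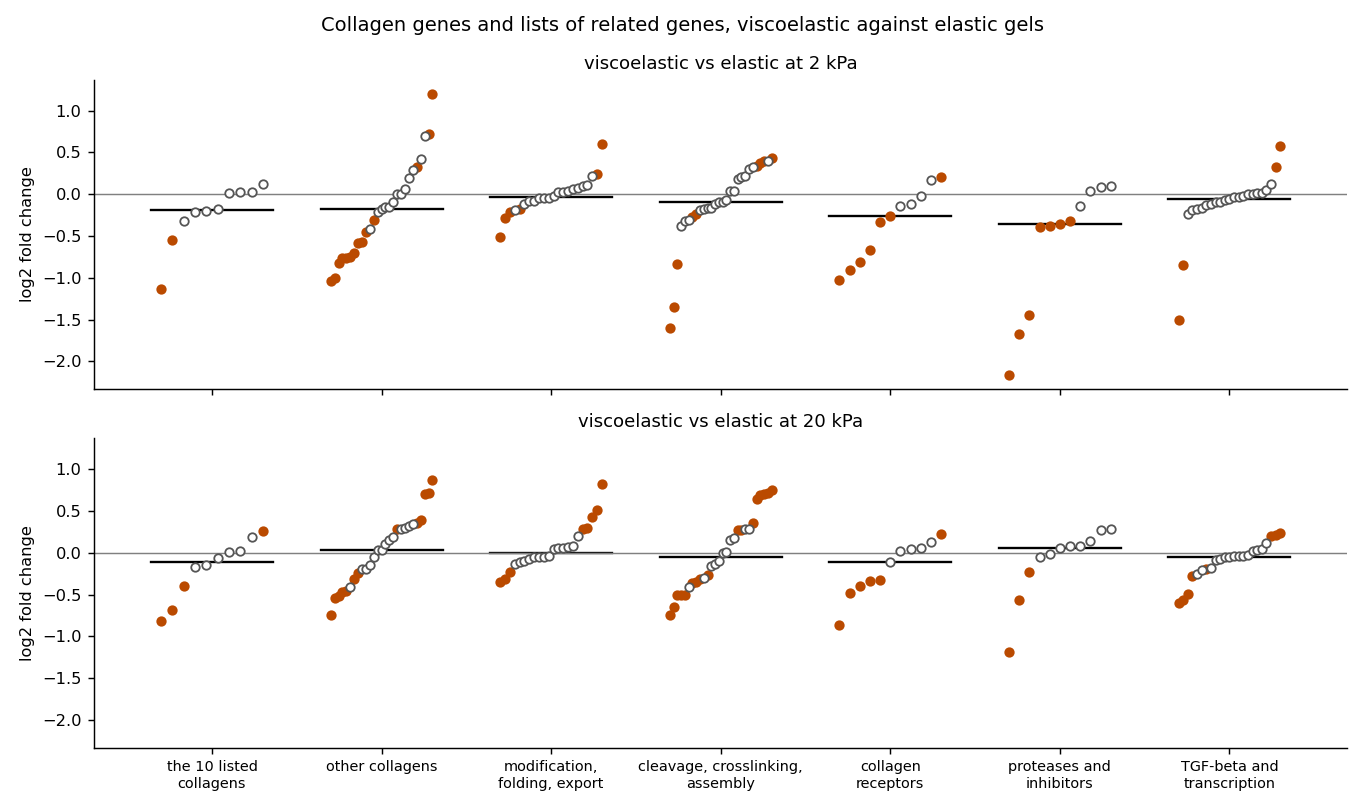
Log2 fold changes of viscoelastic against elastic gels at 2 kPa (top) and 20 kPa (bottom) for the 10 collagen genes and 6 lists of related genes; each point is a gene, filled where the adjusted p over all tested genes was under 0.05, and the black line is the median of the list. Filled points lie on both sides of 0 for most lists, and among proteases and inhibitors the 7 filled points at 2 kPa and the 3 at 20 kPa are all below 0.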

How the data were processed

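Polyadenylated RNA of 12 samples in 4 groups of 3 (replicates as the labels number them, biological replicates per the methods of the study) was analysed. The authors trimmed reads with Trimmomatic, aligned them with STAR to mm10 and made the deposited raw counts per gene with featureCounts and a GENCODE annotation; its release, the strand setting and the treatment of reads that match several genes are not given in the sources used here. Counts are per gene, so isoforms cannot be told apart.

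The counts were filtered with filterByExpr (minimum count 10, minimum total 15), scaled by TMM and fitted with edgeR 4.0.16 (R 4.3.3) by quasi-likelihood on all 12 samples, with group as the only term. The 6 contrasts tested were 4 between groups, the mean effect of gel type and the interaction. P-values were adjusted by Benjamini-Hochberg over 14542 genes. The square root of the common dispersion was 7.50%. Alternatives were DESeq2 1.42.0, its size factors, total counts alone, no filter, a threshold of 0.01, a replicate block, a length and GC correction (13965 genes, 96.0%, had both), the compared groups alone, and each sample left out. Chain ratios were compared by exact permutation (scipy 1.17.1). Totals of 36626221 to 43612804 counts per sample leave replicate spread as the main error of these genes. Scripts were tested on simulated data in which 200 genes were changed. Of genes set to a log2 change of 0.25, 4% were called for viscoelastic against elastic gels at 2 kPa. Far fewer genes were changed there than the 2892 called in the data, which makes the adjusted threshold stricter, and they were drawn from all abundances. The 4% is therefore not the sensitivity for the 10 collagen genes. A gene that was not called is still not shown to be unchanged.

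The members, lists and tests were chosen with earlier results of these data known. All 10 genes were named. From each list of related genes, values are given for genes called with the lowest adjusted p in a direction and comparison of 2 groups. Other list members are named without values, except Mmp2, Mmp13 and Ctsk in the interaction and genes that are also cell type markers. A further gene of these lists is not reported here. Positions and lengths are from GENCODE M21 (GRCm38); its main transcript was used after the total exon length was seen to include exons of other transcripts.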

Additional observations from a re-analysis of the deposited data

Results flagged for a closer look

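From the lists of related genes, those called with the lowest adjusted p in a direction and comparison of 2 groups were taken. Of these, 17 had an effect of viscoelasticity that differed between 20 and 2 kPa by edgeR's interaction test. Their adjusted p in that test ran from 7.94e-06 (Col14a1) to 0.0408 (Ddr1). It called 7.56% of all tested genes. In the full lists it called 9 of 27 other collagens higher and 2 lower. Higher and lower calls were 1 and 1 of 22 modification genes and 5 and 5 of 28 assembly genes. They were 2 and 1 of 11 receptors, 4 and 1 of 11 proteases and inhibitors, and 2 and 1 of 23 TGF-beta genes. The 10 collagens were taken by name and 0 were called, so the 17 cannot be set against them. Values are the log2 effect of viscoelastic against elastic gels at 20 kPa minus that at 2 kPa. Of the collagens, the difference was 1.53 for Col14a1, 1.19 for Col10a1 and -1.17 for Col28a1. Among genes that process procollagen or assemble fibrils it was -0.54 for P4ha3, 0.47 for P3h2, -0.65 for Loxl2, -0.47 for Tnc, -0.65 for Tll1 and 1.09 for Lum. Among collagen receptors it was -0.31 for Ddr1, 0.56 for Antxr2 and 1.03 for Itga10. It was 1.76 for Fap and -0.65 for Timp1, an inhibitor of matrix proteases. The proteases Mmp2, Mmp13 and Ctsk, named only as members of their list and so not among the 17, were called too, at 0.40, 1.71 and 0.50 (adjusted p = 0.0385, 0.0195 and 0.0477). In the TGF-beta list it was 0.59 for Tgfb1, 1.62 for Tgfb2 and -0.40 for Smad7. These genes were named for being called in a comparison of 2 groups that enters the interaction, so the count of 17 is a description.

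Chain ratios gave 2 further cases in which all samples of a group lay above the mean of the group it was compared with, and all samples of the matching group below. The log2 ratio of Col1a1 to Col1a2 was higher at 20 than at 2 kPa on elastic gels and lower on viscoelastic gels, a difference of effects of -0.17. The log2 ratio of Col3a1 to Col1a1 was higher on viscoelastic gels at 20 kPa and lower, by little, at 2 kPa, a difference of 0.25. Neither difference was tested.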

How the results depend on the processing

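Over 1240 values of the 10 genes under the alternatives, 1122 kept their direction and their side of the threshold, 52 lost a call, 23 gained 1 and 43 changed sign; none of those 43 was called in either setting. The calls of Col6a3 (both stiffnesses), Col12a1 (20 kPa), Col5a1 (20 kPa) and Col5a3 (2 kPa) on viscoelastic gels were kept throughout.

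The number of genes called at 2 kPa was 4 with DESeq2 and 2 to 4 without a sample (4 without 2 kPa viscoelastic replicate 2). For 20 against 2 kPa on elastic gels it was 0 at an adjusted p under 0.01, 1 with the length and GC correction, 0 with the replicate block and that correction together, and 0 to 4 without a sample. Over all 14542 tested genes, the correction alone called 2081 in that comparison, and 1796 with the block added. The interaction gave 1 with DESeq2 and 0 to 1 without a sample (Col12a1 without 2 kPa viscoelastic replicate 2). Without a sample, 3 to 4 were called at 20 kPa and 4 to 5 over both stiffnesses. Over all tested genes, 20 against 2 kPa on viscoelastic gels called 331, against 757 with DESeq2, 653 with no filter, 154 with the replicate block, 180 with the length and GC correction (91 higher and 89 lower, against 230 and 101), 79 with the block added, 38 with the compared groups alone (12 higher and 26 lower), and 9 to 351 without a sample: 9 and 36 without 20 kPa viscoelastic replicates 3 and 1, 127 and 219 without 2 kPa viscoelastic replicates 1 and 2, 167 without 20 kPa elastic replicate 2 and 173 without 2 kPa elastic replicate 2. At an adjusted p under 0.01, the 6 comparisons called 1352 (2 kPa), 2733 (20 kPa), 855 (stiffness, elastic), 9 (stiffness, viscoelastic), 3730 (both stiffnesses) and 400 (interaction). On TMM-scaled CPM the summed share on 2 kPa elastic gels was 3.18%.

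Sign changes were of small values. On viscoelastic against elastic gels, Col5a1 at 2 kPa was 0.0021 with the length and GC correction and 0.00086 with the block added. At 20 kPa, Col6a1 was -0.0092 with DESeq2 and -0.0083 with its size factors, and Col6a2 was 0.044 with the length and GC correction, with or without the block. Over both stiffnesses, Col5a2 was 0.012 with total counts alone and 0.062 with the length and GC correction, with or without the block. Col1a1 for 20 against 2 kPa on viscoelastic gels was -0.00032 with DESeq2, -0.00087 with its size factors, -0.00029 with no filter and -0.011 with the compared groups alone, and its interaction was -0.016 with DESeq2, -0.017 with its size factors, -0.00094 with total counts alone, -0.0086 with no filter, -0.055 with the length and GC correction, with or without the block.

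Without a sample, the value on viscoelastic against elastic gels at 2 kPa ran from -0.046 to 0.083 for Col1a1, from -0.028 to 0.064 for Col1a2 and from -0.057 to 0.064 for Col3a1, and at 20 kPa from -0.0025 to 0.044 for Col1a1 and from -0.015 to 0.013 for Col6a1. For 20 against 2 kPa it ran from -0.014 to 0.033 (Col1a1) and -0.00020 to 0.12 (Col5a1) on elastic gels and from -0.052 to 0.076 (Col1a1), -0.010 to 0.13 (Col3a1) and -0.015 to 0.17 (Col5a3) on viscoelastic gels. Col1a1 ran from -0.010 to 0.054 over both stiffnesses and from -0.057 to 0.071 for the interaction. Differences of log2 ratios ran from -0.10 to -0.060 for Col1a1 to Col1a2, from 0.029 to 0.051 for Col6a1 to Col6a2 and from 0.081 to 0.14 for Col3a1 to Col1a1. The cause of these changes was not tested.

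The labels do not say whether same-numbered samples share a source, and samples were treated as unpaired. Deviations of same-numbered samples correlated at -0.16 to 0.31, and not every sample correlated best with its own number (in the comparisons at 2 kPa, at 20 kPa, on elastic and on viscoelastic gels, 1, 0, 0 and 4 of 6 samples did). On viscoelastic gels the correlations were 0.18, 0.31 and 0.05 for replicates 1, 2 and 3, so a pairing there is neither shown nor excluded. With the replicate block, 2, 3, 2, 0, 4 and 0 of the 10 genes were called at 2 kPa, at 20 kPa, with stiffness on elastic and on viscoelastic gels, over both stiffnesses and for the interaction. In the same order, the block called 2569, 4485, 1731, 154, 5475 and 845 of all 14542 tested genes. With 3 samples a group, replicate spread rather than depth limits what can be called of these abundant genes, and intervals cover that spread only.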

Other observations

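For each of the 10 genes, the gene outside the collagens whose log2 CPM correlated best with it over the 12 samples is given as a description; the points share libraries, scaling and the 4 groups, and the best of 14542 genes is high by selection. The strongest were Npat for Col12a1 (Pearson r = 0.986), Ank, a pyrophosphate transporter, for Col6a3 (r = 0.986), Zzef1 for Col5a1 (r = 0.980) and Cpq for Col1a2 (r = 0.974). Col6a1 and Col6a2 shared Tnfrsf21, a death receptor, at r = 0.965 for each. Cd1d1 came nearest to Col3a1 (r = 0.960), Tmem154 to Col5a2 (r = 0.950), Chad, which encodes the cartilage matrix protein chondroadherin, to Col5a3 (r = 0.937) and Sec11a to Col1a1 (r = 0.905).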
